A study of Mus musculus with 2 samples.

Results

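Cytosolic ribosomal protein genes were followed through the cell classes of the embryonic mouse forebrain. The genes were chosen by symbol, as those named Rpl, Rps or Rplp with a number and at most a short suffix, without names marked as pseudogenes and without the Rps6k kinases, and were selected on a total of at least 100 UMIs over both libraries. A UMI, or unique molecular identifier, counts 1 captured mRNA molecule. Of 82 symbols of 32285 genes that matched, 79 passed the count minimum, 31 of the small and 48 of the large ribosomal subunit. Both libraries came from wild-type (WT) embryos of the EmxDot line at embryonic day 16.5, named WT replicate 1 and WT replicate 6. The series' title names the Emx1-Cre line, a Cre active in dorsal telencephalic progenitors, and Dot1l, the gene conditionally deleted in that series, while the study's methods describe the animals used as C57BL/6J, and no deletion or treatment was labelled for these embryos. The labels call the tissue brain hemispheres and the protocol names the dorsal telencephalon, which was dissociated with papain and loaded for 3′ droplet sequencing (10x Genomics). Cells with striatal and ganglionic eminence markers, which are ventral classes, were also found.

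A ribosome is built from a small subunit, which reads the mRNA, and a large subunit, which joins the amino acids, and each contains a set of proteins made in roughly matched amounts. Ribosomal protein mRNAs are among the most abundant of a cell, and many begin with a C followed by an unbroken run of C and T, the terminal oligopyrimidine (TOP) tract, through which growth signals acting by mTOR control their translation. In the developing cortex radial glia are the stem cells, intermediate progenitors arise from them, and both give rise to excitatory neurons, whereas interneurons come from progenitors of the ganglionic eminences.

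To show how these genes start, 30 bases around the annotated start site (the last 15 bases before it and the first 15 from it) are printed 5′ to 3′ on the gene's strand from the RefSeq promoter table, build GRCm38.p6. Capitals mark the longest run of C and T that has a base within 10 bases of the start. The genes shown are 3 with a run that spans the start, and the paralogs Rps27l, Rpl22l1 and Rpl7l1 with those of their parent genes that the table held.
Rpl15 (chr14:18270972-18271001, - strand): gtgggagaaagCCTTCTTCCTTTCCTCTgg
Rps18 (chr17:33955651-33955680, - strand): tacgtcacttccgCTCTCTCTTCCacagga
Rps6 (chr4:86857353-86857382, - strand): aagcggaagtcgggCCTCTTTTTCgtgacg
Rps27 (chr3:90213634-90213663, - strand): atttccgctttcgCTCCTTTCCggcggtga
Rps27l (chr9:66946071-66946100, + strand): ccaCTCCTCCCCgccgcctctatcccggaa
Rpl22 (chr4:152325711-152325740, + strand): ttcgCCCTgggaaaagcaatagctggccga
Rpl22l1 (chr3:28805493-28805522, + strand): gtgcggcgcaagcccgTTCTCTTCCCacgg
Rpl7l1 (chr17:46782642-46782671, - strand): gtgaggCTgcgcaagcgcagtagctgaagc
In Rpl15, Rps18, Rps6 and Rps27 the run crosses the annotated start, in Rpl22l1 it begins at the base after the first of the transcript, in Rps27l it ends before the start, and in Rpl22 and Rpl7l1 the longest runs near the start were of 4 and 2 bases. Of the 79 genes 59 were matched in the table. A C at the first base followed by further C or T to a run of at least 5 was found in 12 of them (20.3%), against 2.49% of all 27025 promoters. A run of at least 8 C or T with a base within 10 bases of the start was found in 27 (45.8%), against 13.9% of all promoters. The search was on the strand of the gene only, annotated starts can lie some bases from the used ones, and a match is a description of the letters.

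The 2 libraries held 14136 and 13046 barcodes with 74930397 and 68964234 UMIs, and 59 barcode sequences occurred in both. After filters on UMIs and mitochondrial share and after leaving out predicted doublets, 7219 and 7352 cells remained, of which 3986 and 4266 (55.2% and 58.0%) fell into a class. Classes are gates on marker genes, none of them ribosomal, and a class name stands for cells with at least 3 of 6 markers of that list and at least 2 more than of any other. The gate for interneurons of the caudal ganglionic eminence (CGE) was not clean, as it also held markers of the medial ganglionic eminence (MGE), the radial glia gate does not separate dorsal from ventral cells, and oligodendrocyte precursors (5 cells and 0 cells) were not summed.

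The total of UMIs, which chose the members, is given as a description. The 79 genes held 7524181 UMIs in replicate 1 and 6529972 in replicate 6, that is 10.0% and 9.47% of all UMIs. Among the genes with most were the large subunit gene Rpl13 (379346 UMIs, 2.70% of the UMIs of the set) and Rps24 of the small subunit (288482, 2.05%). Next to these came Rps27a, which is made as a fusion with ubiquitin, Rps14, Rps9, Rps7, Rpl23, Rplp1 and Rpl15, and the 10 genes with most UMIs together held 20.9%. UMIs from 3′ ends count molecules without regard to gene length, but capture can differ between genes, so these are shares of UMIs and not of proteins. At the count minimum the set had a wide gap. The genes just inside were Rpl7l1 with 8162 UMIs, Rps27l with 22694, Rpl22l1 with 42919 and Rpl4 with 56526, and the symbols left out were Rpl39l with 28, Rpl3l with 9 and Rpl10l with 1.

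The share of all UMIs that came from the 79 genes ranged from 2.11% to 17.6% between classes (means of 2 libraries), which is a description with no test. In the plot of shares by class, microglia, the immune cells of the brain, and fibroblasts were at the top, with 16.6% and 18.6% in microglia of replicates 1 and 6 and 16.7% and 17.8% in fibroblasts. Intermediate progenitors followed with 15.8% and 15.4%, above endothelial cells with 15.3% and 13.0% and mural cells, which surround vessels, with 13.3% and 12.8%. Radial glia had 12.95% and 12.2%, and progenitors of the ganglionic eminences 11.97% and 11.80%. Neurons stood lower. Excitatory neurons had 9.92% and 8.87%, striatal neurons 9.55% and 8.43%, and Cajal-Retzius cells, early neurons of the cortical surface, 8.10% and 8.07%. Interneurons with MGE markers had 7.22% and 6.14%, and those with CGE markers 7.58% and 5.53%. Every library value of the neuronal classes lay below every value of the progenitor classes. Erythroid cells had 2.24% and 1.98%, where globin takes up most of the UMIs, and 14.8% on average when globin, Malat1 and mitochondrial UMIs were left out of the total.

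**Figure D1:**
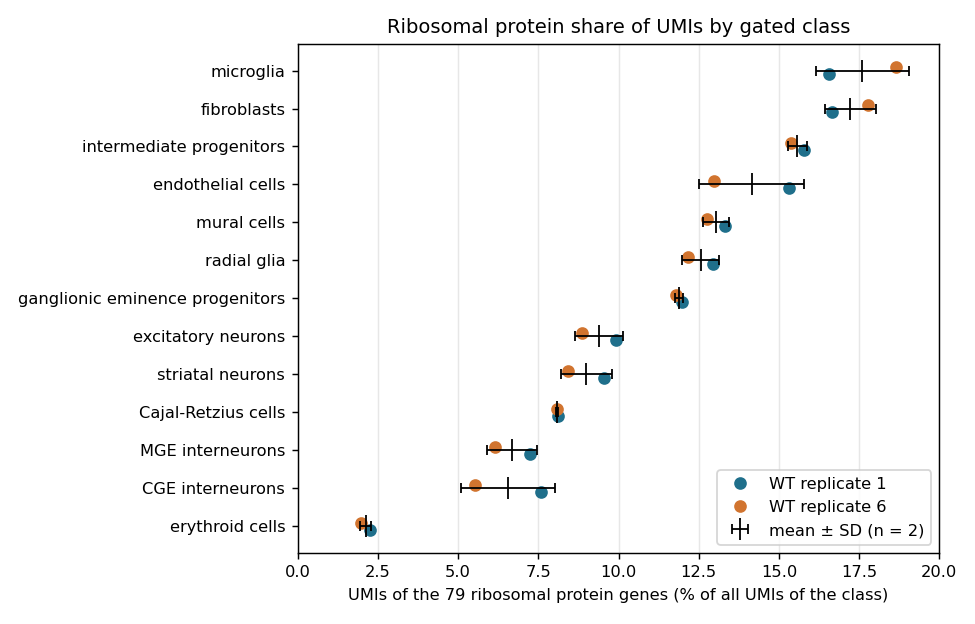
Share of all UMIs of a class that came from the 79 ribosomal protein genes (x axis, percent), by gated class, with a point for each library and a bar at the mean with its SD (n = 2). Microglia, fibroblasts and intermediate progenitors are highest, and MGE and CGE interneurons are lowest beside erythroid cells.

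The mean shares were 17.6% ± 1.46 in microglia, 17.2% ± 0.795 in fibroblasts, 15.6% ± 0.285 in intermediate progenitors, 12.6% ± 0.564 in radial glia and 11.9% ± 0.126 in ganglionic eminence progenitors (SD, n = 2 libraries). They were 9.39% ± 0.741 in excitatory neurons, 8.99% ± 0.789 in striatal neurons, 8.09% ± 0.023 in Cajal-Retzius cells, 6.68% ± 0.768 in MGE and 6.55% ± 1.45 in CGE interneurons. Microglia and fibroblasts, excitatory and striatal neurons, and MGE and CGE interneurons differed by less than the SD between libraries, and mural cells overlapped radial glia. The medians over single cells were 15.6% in intermediate progenitors of either library, 12.3% and 12.4% in radial glia, 9.93% and 8.82% in excitatory neurons and 5.77% and 4.84% in MGE interneurons, in the order of the summed shares, but those of Cajal-Retzius cells were 4.90% and 7.64%, which in replicate 1 lay below MGE interneurons. A share cannot tell more ribosomal protein mRNA from less of all other RNA. Barcodes under 1500 UMIs, which can hold free RNA, held 14.0% and 13.7%, and the part of free RNA in the class values was not tested.

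The subunits held similar parts of the set in every class. Small subunit genes held between 42.8% (erythroid cells) and 45.8% (microglia) of the UMIs of the set in the class means, with 44.0% in radial glia, 44.5% in intermediate progenitors, 44.0% in excitatory neurons and 44.1% in MGE interneurons.

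The 2 libraries differed in the short ribosomal protein genes, and this difference has no replicate check, since each library is 1 sample. The log2 ratio of the level in replicate 1 over replicate 6, over all gated classes, was lower in genes of longer coding sequence, with Spearman's rho = -0.85 and Pearson's r = -0.79 with log2 length across the 79 genes, which share the same libraries. It was over 0.5 in 11 genes, none with a coding sequence longer than 426 bases. Lengths here are those of the annotated canonical transcript, which can differ from that of the main protein product. Rps29, a small zinc-binding protein of the small subunit, had 1.03 (285 bases), Rps28 had 0.93 (207 bases) and Rpl38, whose loss changes the body pattern of mice, had 0.92 (210 bases). The others over 0.5 were Rpl35, Rps27, Rps21, Rpl37, Rpl37a, Rpl39, Rpl41 and Rpl36. At 500 bases or more, 3 of 31 genes lay above 0 and the median was -0.09, with the lowest values in Rps2 (-0.21, 879 bases) and Rps6 (-0.20, 747 bases). Other genes with a coding sequence under 300 bases and at least 1000 UMIs had a median of 0.02 with an upper quartile of 0.284 and a highest value of 1.004 (147 genes), against a median of 0.85 for 9 ribosomal protein genes of that length, so some of them were shifted the same way. The difference was not tested. Rps27l, with 252 bases, was the lowest of those 9 at 0.19. The shift of Rps29 was similar in each class tested, with 0.95 in radial glia, 0.86 in intermediate progenitors, 1.05 in excitatory neurons and 1.17 in MGE interneurons. What set the libraries apart was not tested.

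**Figure D2:**
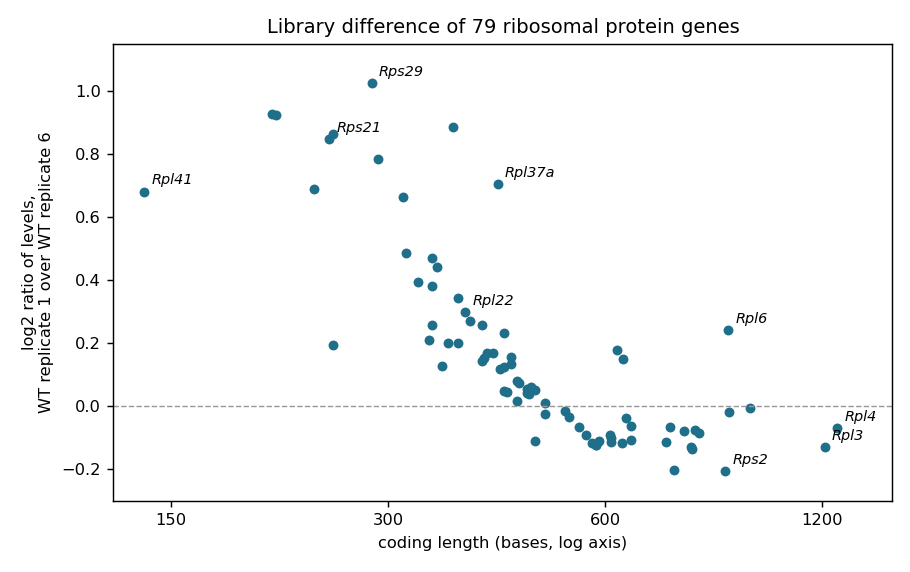
Log2 ratio of the level in WT replicate 1 over WT replicate 6 (y axis) against coding length in bases (log x axis), with a point for each of the 79 ribosomal protein genes. The genes over 0.5 all have 426 bases or fewer, while all but 3 of the 31 genes of 500 bases or more lie at or below 0.

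Classes were then compared gene by gene on UMIs summed per class and library, with edgeR's quasi-likelihood test across all genes and Benjamini-Hochberg adjusted p-values, called under 0.05. Levels are UMIs of a gene scaled to the usual fixed total of UMIs for the class (CPM), and differences are log2 values scaled by TMM, which sets the bulk of genes near 0. With n = 2 libraries per class, p-values measure only the spread between these libraries, and the spread of each gene is moderated by that of other genes. Fits that add the library as a term (a block) leave fewer residual degrees of freedom. Their very small p-values rest on spread borrowed across genes and not on more libraries. The comparisons reuse the same class sums, so they are not independent of each other. Without TMM the median over all genes moved from -0.05 to 0.14 for radial glia against excitatory neurons, from -0.08 to 0.07 for intermediate progenitors and from -0.03 to 0.07 for MGE interneurons, each against excitatory neurons, and by 0.1 or less in the other comparisons. The median of the 79 genes then moved from 0.23 to 0.42, from 0.57 to 0.72 and from -0.62 to -0.52.

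Whether progenitors and their neuronal daughters differ was asked first in intermediate progenitors against excitatory neurons. Here 62 of 79 genes were higher and none lower, against a background of 18.4% higher and 21.9% lower among the 14767 genes tested (at an unadjusted p under 0.05, 64 higher and 0 lower with edgeR, and 64 and 0 with DESeq2). The median difference of the set was 0.57, a 1.48-fold higher level, against -0.08 over all genes, and 78 genes lay above 0 in both libraries. The exception was Rpl7l1. Rps18, of the head of the small subunit, had 2476 and 2552 CPM in intermediate progenitors and 1282 and 1196 CPM in excitatory neurons, a difference of 0.86 ± 0.10 (SE, adjusted p = 0.000282). Rps24, a gene mutated in some families with Diamond-Blackfan anaemia, had 3511 and 3563 against 1832 and 1726 CPM, a difference of 0.84 ± 0.10 (SE, adjusted p = 0.000334). In both genes the lowest progenitor value was well above the highest neuronal value. Rps9, a protein of ribosome decoding accuracy, rose by 0.80 (adjusted p = 0.000579), and Rps6, the target of the S6 kinases, rose by 0.76 (adjusted p = 0.00143). The largest difference was that of the paralog Rps27l. The number higher was 27 when all gated classes were fitted together, where the genes tested, the scaling and the spread all change and the median was 0.42. In the fit with the library as a block 74 were higher, against a background of 18.7%.

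Radial glia had lower levels than intermediate progenitors in 41 of 79 genes and a higher level in 1, against backgrounds of 14.7% lower and 18.6% higher among 11419 genes. The median difference was -0.37, so that radial glia had 0.773 times the level of intermediate progenitors, against 0.01 over all genes, and 77 genes lay below 0 in both libraries. With the library as a block, as both sums of a library come from the same cell suspension, 75 were lower and 1 higher, against backgrounds of 17.6% and 20.8%. Rps9 had 2209.7 and 2374 CPM in radial glia and 3278 and 3772 CPM in intermediate progenitors, and its level fell by 0.67 ± 0.11 (SE, adjusted p = 0.000447) on the log2 scale. Rps26, also mutated in Diamond-Blackfan anaemia, had 2159 and 1748 against 2951 and 2349.6 CPM, a difference of -0.49 ± 0.14 (SE, adjusted p = 0.0177). Both genes were lower in radial glia of either library. Next to them, Rpl27 differed by -0.52 (adjusted p = 0.00431) and Rps3, which sits where the mRNA enters, by -0.50 (adjusted p = 0.00585). The number of genes lower was 24 with DESeq2, 27 without TMM, 21 with a looser and 8 with a stricter gate, and 1 when all gated classes were fitted together, and the gene higher, Rpl7l1, was lost with DESeq2 (adjusted p = 0.0819).

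Radial glia against excitatory neurons gave a smaller difference. In this comparison 31 genes (39.2%) were higher and none lower, against backgrounds of 31.9% and 32.9% among 15388 genes, so the share higher was near that of all genes (at an unadjusted p under 0.05, 32 higher and 0 lower with edgeR, and 37 and 0 with DESeq2). The median was 0.23, a 1.17-fold higher level, and 67 genes lay above 0 in both libraries and 6 below. With the library as a block 52 genes were higher and 1, Rps7, lower, against backgrounds of 33.8% and 34.9%. Rplp1, of the flexible stalk that recruits translation factors, had 2798 and 2512 CPM in radial glia and 1692 and 1417 CPM in excitatory neurons, a difference of 0.58 ± 0.12 (SE, adjusted p = 0.00184). Rpl14, a large subunit protein, had 1141 and 1229.8 against 697 and 709 CPM, a difference of 0.56 ± 0.09 (SE, adjusted p = 0.000472). Radial glia were above excitatory neurons in either library for both genes. The count higher was 58 without TMM, 17 without the filter on low counts and 5 when all gated classes were fitted together, and the median was 0.42, 0.13 and 0.13 in these fits.

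Interneurons and excitatory neurons, both postmitotic, were compared next. In MGE interneurons 67 genes were lower and none higher, against backgrounds of 21.3% and 19.0% among 15222 genes (at an unadjusted p under 0.05, 70 lower and 0 higher with edgeR, and 69 and 0 with DESeq2). All 79 genes lay below 0 in both libraries, with a median of -0.62 or 0.650 times the level, against -0.03 over all genes. Rpl27 had 515 and 441 CPM in MGE interneurons and 859.8 and 752 CPM in excitatory neurons, a difference of -0.86 ± 0.11 (SE, adjusted p = 0.000613). Rps2, of the mRNA entry channel, had 672 and 719 against 1042 and 1192 CPM, a difference of -0.78 ± 0.09 (SE, adjusted p = 0.000347). Rpl12, of the base of the stalk, had 485 and 446 against 738 and 729.7 CPM, a difference of -0.76 ± 0.09 (SE, adjusted p = 0.000286). In each of these genes both interneuron values were under both excitatory values. The 12 genes without a call were Rplp2 and the 11 short genes that differed most between libraries. Rps29, for example, had 1252 and 555 CPM in MGE interneurons and 1495 and 721 CPM in excitatory neurons, so the libraries lay farther apart than the classes, whose difference was -0.40 ± 0.40 (SE, adjusted p = 0.464). With the library as a block all 79 genes were lower, against a background of 24.6%, and Rps29 then had -0.42 (adjusted p = 2.75e-08).

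MGE interneurons were shallower, with a median of 3106 and 3161 UMIs per cell against 8791 and 7822 in excitatory neurons, and their Malat1 share, a nuclear RNA that is high in nuclei and damaged cells, was 1.997% and 2.37% against 1.38% and 1.40%. The plot of shares by depth shows that the ribosomal protein share itself moved with depth within a class. In excitatory neurons of replicate 1 it was 6.08% in cells of 1500 to 3000 UMIs, 7.72% at 3000 to 6000 and 10.5% at 6000 to 12000. In MGE interneurons of replicate 1 the same bins gave 6.05%, 6.88% and 8.75%. The shallowest cells of both classes were thus close in replicate 1, whereas in replicate 6 they were at 5.10% in MGE interneurons and 5.86% in excitatory neurons. In cells of 6000 to 12000 UMIs of replicate 6 the classes were at 7.49% and 9.23%. When only cells of 4000 to 12000 UMIs were summed, 45 genes were lower in MGE interneurons and the median difference was -0.38, and with a stricter cell filter 46 were lower and the median was -0.44. The number lower was 40 when all gated classes were fitted together (median -0.56). Radial glia and intermediate progenitors had similar medians of 9562 and 9175 UMIs in replicate 1, and at 6000 to 12000 UMIs they were at 14.4% and 17.1%, and in replicate 6 at 13.4% and 15.95%.

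**Figure D3:**
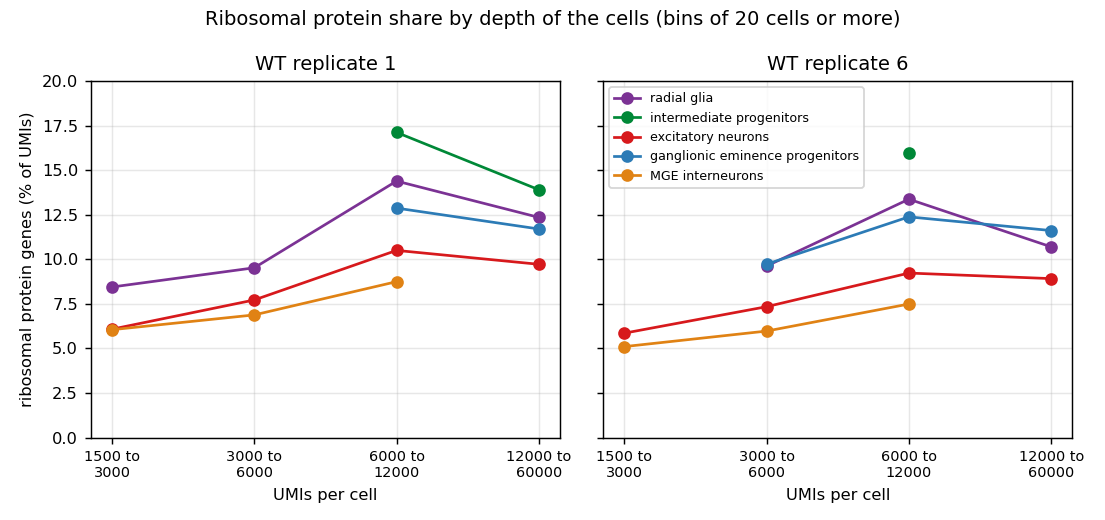
Share of UMIs of the 79 ribosomal protein genes (y axis, percent) in cells binned by UMIs per cell (x axis), for 5 gated classes in each library, where a bin holds at least 20 cells. In both libraries the share of excitatory neurons and MGE interneurons is higher in deeper bins up to 12000 UMIs, and intermediate progenitors are highest at 6000 to 12000 UMIs.

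The interneuron lineage was examined by setting ganglionic eminence progenitors, which carried at least 3 cell cycle genes, against MGE interneurons. Summed over cells of all depths, this comparison gave the largest differences of the set. It had 71 genes higher and none lower, against backgrounds of 27.7% and 28.9% among 11209 genes (at an unadjusted p under 0.05, 75 higher and 0 lower with edgeR, and 69 and 0 with DESeq2). All 79 lay above 0 in both libraries, the median was 0.82, a 1.77-fold higher level, against -0.03 over all genes, and the range was 0.32 to 1.94. Rpl3, a protein near the catalytic centre, had 1129.7 and 1316 CPM in progenitors and 562 and 535 CPM in interneurons, a difference of 1.14 ± 0.15 (SE, adjusted p = 4.89e-05). Rpl4, which lines the exit tunnel, had 534 and 584 against 244 and 266 CPM, a difference of 1.12 ± 0.13 (SE, adjusted p = 2.88e-05). Both genes were about a factor of 2 higher in progenitors of either library. Progenitors were deeper, with medians of 11307.5 and 10409 UMIs per cell, and no depth bin under 3000 UMIs held enough of them. In cells of 4000 to 12000 UMIs 65 genes were higher and the median was 0.61. In that range intermediate progenitors against excitatory neurons had 67 higher and a median of 0.63, so the ranking did not hold there. All 79 genes were higher with the library as a block, against a background of 29.2%.

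Radial glia with UMIs of at least 3 of the cell cycle genes Mki67, Top2a, Cenpf, Ccnb1, Tpx2 and Hmmr were compared with radial glia with none. They are called cycling and non-cycling here, but dividing cells in which none of these genes was captured also fall into the non-cycling group. None of the 79 genes was called, against backgrounds of 10.7% higher and 9.95% lower among 10318 genes (at an unadjusted p under 0.05, 1 higher and 0 lower with edgeR, and 0 and 0 with DESeq2). The median was -0.04, with 59 genes below and 20 above 0, and shares of UMIs were 12.03% and 11.98% in cycling and 13.46% and 12.04% in non-cycling cells. Cycling cells were also deeper, with medians of 11327 and 10612 UMIs per cell against 8185 and 7743. In cells of 4000 to 12000 UMIs none was called and the median was -0.03. Rps27l had 362 and 340.0 CPM in cycling and 290.1 and 267 CPM in non-cycling cells, a difference of 0.37 ± 0.15 (SE, adjusted p = 0.0839). With the library as a block it was the only gene called (adjusted p = 0.017), against a background of 13.1% higher.

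**Figure D4:**
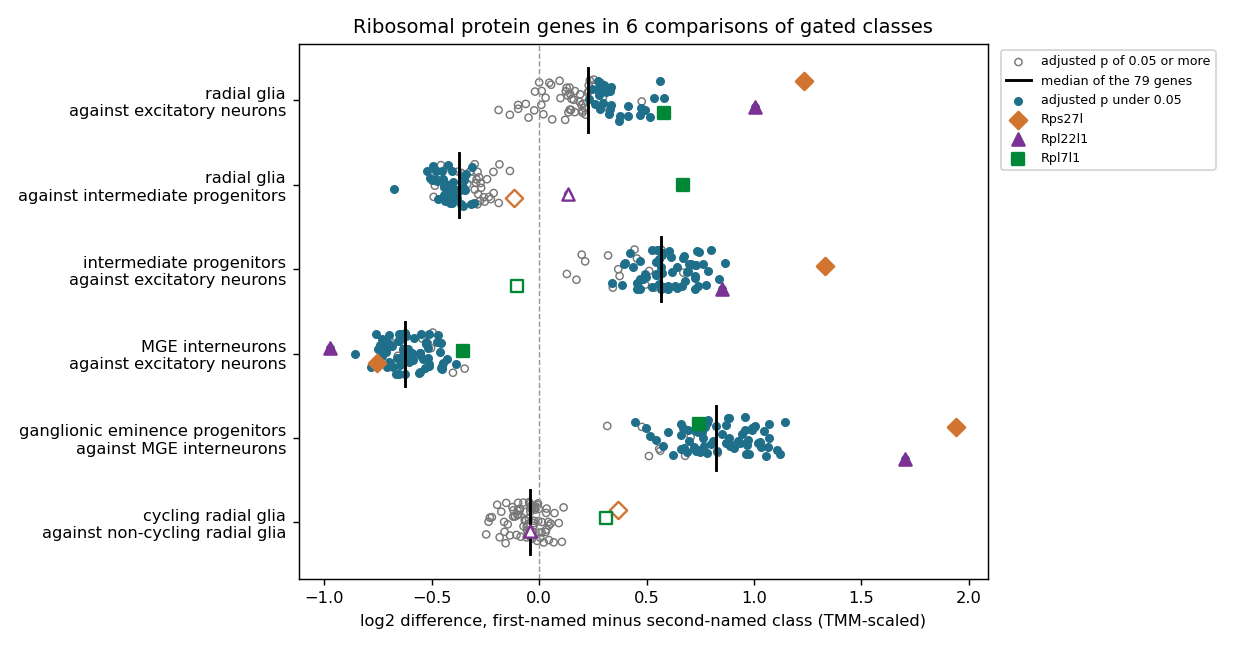
Log2 difference (x axis, first-named minus second-named class, TMM-scaled) in 6 comparisons, with a point for each of the 79 ribosomal protein genes, marked by whether it was called. The points of MGE interneurons against excitatory neurons all lie below 0 and those of ganglionic eminence progenitors against MGE interneurons all above 0, while cycling against non-cycling radial glia centre near 0.

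Paralogs departed most from the rest of the set. Rps27l, a copy of Rps27 that is also induced by p53, had 332 and 319 CPM in radial glia, 324 and 356 CPM in intermediate progenitors and 307 and 291 CPM in ganglionic eminence progenitors. It had 130.5 and 112 CPM in excitatory neurons and 88.7 and 65.1 CPM in MGE interneurons. The 3 progenitor classes were thus all above the 2 neuronal ones. The differences were 1.23 ± 0.10 (SE, adjusted p = 4.86e-06) for radial glia and 1.33 ± 0.11 (SE, adjusted p = 3.73e-05) for intermediate progenitors against excitatory neurons, and 1.94 ± 0.16 (SE, adjusted p = 9.78e-07) for ganglionic eminence progenitors against MGE interneurons. Outside these lineages, striatal neurons had 85.3 and 69.5 CPM, whereas microglia had 301 and 272 and fibroblasts 335 and 307 CPM. Its parent Rps27 was not called in any of the 6 TMM-scaled comparisons without the block, with 0.32 ± 0.30 (SE, adjusted p = 0.385) for ganglionic eminence progenitors against MGE interneurons, and it is 1 of the short genes that differed between the libraries. With the block it was called there, with 0.35 (adjusted p = 0.0435), and lower in radial glia than in intermediate progenitors, with -0.39 (adjusted p = 2.66e-05). As a share of Rps27 UMIs, Rps27l reached 37.3% and 61.3% in radial glia against 16.4% and 26.0% in excitatory neurons and 12.8% and 18.7% in MGE interneurons, so the order held in each library although the ratio itself differed between them.

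Rpl22l1, a copy of the RNA-binding protein Rpl22, had 631 and 548 CPM in radial glia, 501 and 535 CPM in intermediate progenitors, 277 and 238 CPM in excitatory neurons and 159 and 122 CPM in MGE interneurons. The differences were 1.004 ± 0.11 (SE, adjusted p = 5.42e-05) for radial glia and -0.97 ± 0.14 (SE, adjusted p = 0.000835) for MGE interneurons against excitatory neurons, and 1.71 ± 0.16 (SE, adjusted p = 3.16e-06) for ganglionic eminence progenitors against MGE interneurons. Rpl22 moved in the same direction but less, with 0.34 (adjusted p = 0.0447), -0.58 (adjusted p = 0.0263) and 1.03 (adjusted p = 0.000426). The difference between both genes was not tested as such. Per 100 UMIs of Rpl22 there were 79.9 and 79.6 of Rpl22l1 in radial glia, 48.5 and 52.4 in excitatory neurons, 37.2 and 39.9 in MGE interneurons and 27.8 and 30.9 in microglia. Ganglionic eminence progenitors had 61.3 in either library. Intermediate progenitors had 48.8 and 62.1, so in replicate 1 they were level with excitatory neurons. Fibroblasts, with 80.8 and 77.2, were close to radial glia. Cajal-Retzius cells were the exception among neurons, as Rpl22l1 exceeded Rpl22 there in both libraries, with 143 and 150 per 100 in 31 and 39 cells. Neurons were thus on either side of radial glia in this ratio.

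Rpl7l1, a copy of Rpl7 linked to the assembly of the large subunit, was the lowest gene of the set. It had 87.0 and 98.5 CPM in radial glia, 54.4 and 57.7 CPM in intermediate progenitors and 52.0 and 56.2 CPM in excitatory neurons. It was the only gene called higher in radial glia than in intermediate progenitors, by 0.67 ± 0.15 (SE, adjusted p = 0.00475), while Rpl7 was lower there, with -0.38 (adjusted p = 0.0259). Rpl7l1 had only 55 and 60 UMIs in intermediate progenitors, and its call was lost with DESeq2 (adjusted p = 0.0819) and with the strict gate. Against excitatory neurons it was higher in radial glia, by 0.58 ± 0.09 (SE, adjusted p = 0.000436), and Rpl7 had 0.03 (adjusted p = 0.785). Its UMIs were 6.89% and 7.17% of those of Rpl7 in radial glia and 3.57% and 3.22% in intermediate progenitors.

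**Figure D5:**
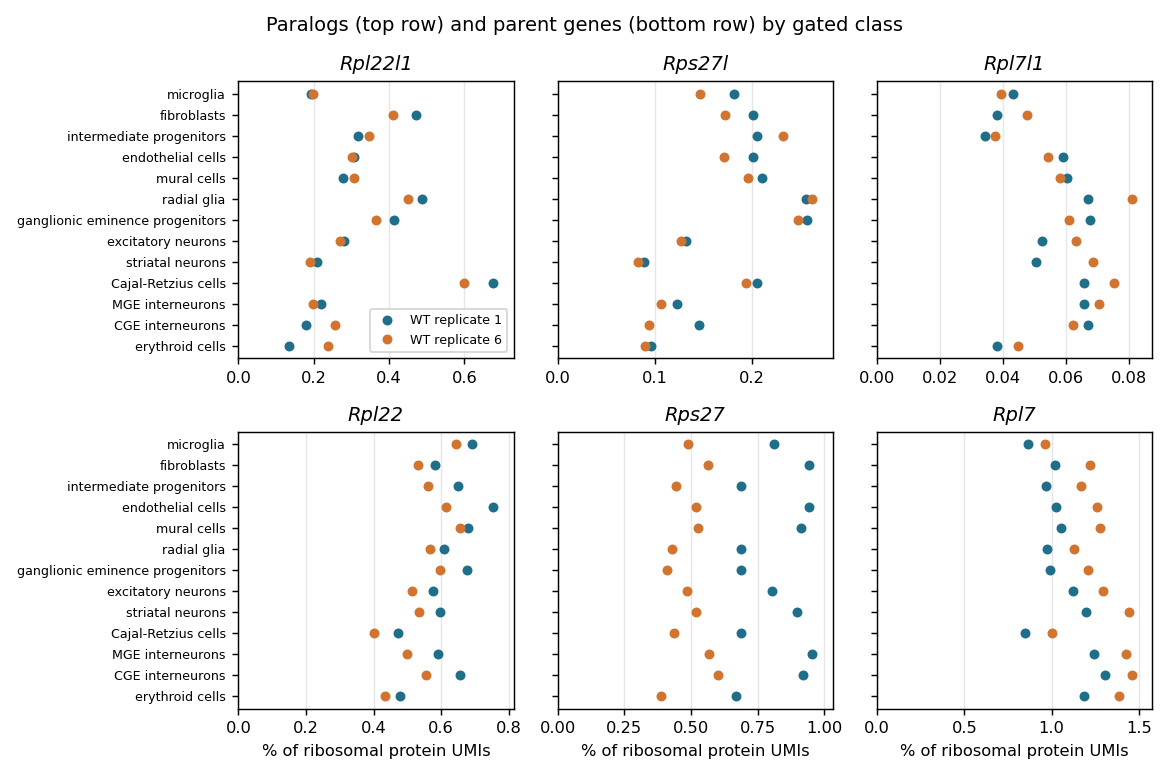
Share of the ribosomal protein UMIs (x axis, percent) held by Rps27l, Rpl22l1 and Rpl7l1 (top row) and by their parent genes Rps27, Rpl22 and Rpl7 (bottom row) in each gated class, with a point for each library. Rps27l and Rpl22l1 hold more in radial glia than in excitatory neurons and MGE interneurons, and Rps27 separates by library.

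The P-stalk of the large subunit is built from Rplp0, Rplp1 and Rplp2. In intermediate progenitors against excitatory neurons all 3 rose, Rplp0 by 0.71 (adjusted p = 0.0007), Rplp1 by 0.70 (adjusted p = 0.00252) and Rplp2 by 0.60 (adjusted p = 0.0312). In MGE interneurons Rplp0 differed by -0.63 (adjusted p = 0.000444) and Rplp1 by -0.58 (adjusted p = 0.00848), while Rplp2 had -0.52 (adjusted p = 0.0848), and with the block -0.52 (adjusted p = 5.06e-11). All 3 were higher in ganglionic eminence progenitors than in MGE interneurons, by 0.97, 0.89 and 0.96. Between radial glia and intermediate progenitors only Rplp0 of the 3 was called, with -0.32 (adjusted p = 0.0379), and Rplp1 had -0.14 (adjusted p = 0.39). In radial glia against excitatory neurons Rplp0 rose by 0.41 (adjusted p = 0.00331) and Rplp2 had 0.30 (adjusted p = 0.181) and with the block 0.30 (adjusted p = 8.12e-05), and none of the 3 was called in cycling radial glia.

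To see which genes moved against the rest of the set, levels were also scaled to the summed UMIs of the 79 genes, which sets the set as a whole near 0. Few genes were then called: 4 for radial glia and 3 for intermediate progenitors against excitatory neurons, 2 for radial glia against intermediate progenitors, 3 for ganglionic eminence progenitors against MGE interneurons, and 0 in the other comparisons. Over all genes 63.2%, 57.7%, 38.3% and 69.8% were called in those comparisons, and 48.9% for MGE interneurons against excitatory neurons and 17.4% for cycling radial glia, in either direction. In the same order, this scaling moved the median of all genes to -0.28, -0.66, 0.37, -0.85, 0.56 and 0.04. Small counts in the set beside large shares of all genes thus follow in part from the scaling itself. With the library as a block the backgrounds were 70.3%, 58.5%, 44.8%, 72.8%, 60.5% and 19.7% in the same order, and the genes of the set called higher and lower were 15 and 16, 4 and 6, 9 and 2, 4 and 5, 4 and 5, and 1 and 0, in fits chosen after seeing the data. The calls without the block were mostly paralogs. Rps27l, Rpl22l1 and Rplp1 were above the set in radial glia against excitatory neurons, by 1.006, 0.78 and 0.35, and Rps7, which binds the p53 regulator Mdm2, was under it, by -0.42. In intermediate progenitors Rps27l was above (0.76) and Rpl7l1 (-0.69) and Rpl38 (-0.43) were under the set. In ganglionic eminence progenitors Rps27l (1.13) and Rpl22l1 (0.89) were above and Rps27 (-0.47) was under it, and in radial glia against intermediate progenitors Rpl7l1 (1.04) and Rpl22l1 (0.50) were above it.

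Across the 10 classes with at least 50 cells in each library, the SD of the log2 share of set UMIs was 0.482 for Rpl22l1, 0.307 for Rps29, 0.259 for Rplp1, 0.253 for Rpl12 and 0.237 for Rpl23a, the 5 that varied most among 77 genes with at least 20 UMIs in every sum. For Rps29 the SD between the libraries, 0.648, was larger than that between classes. Rplp1 held 2.78% and 2.57% of set UMIs in fibroblasts and 1.68% and 1.40% in CGE interneurons, and Rpl12 was highest in microglia. The other 2 genes, Rps27l (0.539) and Rpl7l1 (0.347), missed the UMI minimum in some class. At the other end were Rpl17, Rps10, Rpl19, Rps15a and Rpl26, with SDs from 0.0461 to 0.0648, so their part of the set varied little between classes. The SD between the libraries was larger than that in Rpl17 (0.133), Rps10 (0.091), Rpl19 (0.177) and Rps15a (0.108), and was 0.042 in Rpl26.

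Other genes of the same machinery were read from lists, whose counts stand against the shares of all genes tested. Against excitatory neurons these were 18.4% higher and 21.9% lower in intermediate progenitors, 31.9% and 32.9% in radial glia, and 19.0% and 21.3% in MGE interneurons. Radial glia against intermediate progenitors had 18.6% higher and 14.7% lower. The shares were 27.7% and 28.9% for ganglionic eminence progenitors against MGE interneurons, and 10.7% and 9.95% for cycling radial glia. Of 5 ribosomal protein genes that the name rule does not take (among them Rpsa, Fau, Rack1 and Rpl36al), 3 were higher in intermediate progenitors than in excitatory neurons, 4 were lower in MGE interneurons and 4 were higher in ganglionic eminence progenitors. In radial glia 1 was higher than in excitatory neurons and 2 were lower than in intermediate progenitors, and none was called in cycling radial glia. Rpsa, the laminin receptor protein of the small subunit, had 2465 and 2593 CPM in intermediate progenitors and 1470.3 and 1483 CPM in excitatory neurons, a difference of 0.62 ± 0.10 (SE, adjusted p = 0.00133). Rack1, a scaffold on the small subunit, was lower in radial glia than in intermediate progenitors, by -0.54 ± 0.11 (SE, adjusted p = 0.00251), with 1140.3 and 1196 against 1578 and 1700.4 CPM. Both genes thus moved as most of the 79 did.

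Of 16 other genes known for a TOP tract, mostly translation factors, 13 were higher in intermediate progenitors than in excitatory neurons and none lower, 15 were lower in MGE interneurons, 15 were higher in ganglionic eminence progenitors, and 9 were lower in radial glia than in intermediate progenitors. Their medians were 0.40, -0.59, 0.81 and -0.42. In radial glia against excitatory neurons 4 were higher and 3 lower (median 0.06), smaller shares than the 31.9% and 32.9% of all genes. Eef1a1, the elongation factor that brings in tRNAs, had 1620.2 and 1541 CPM in MGE interneurons and 2252 and 2229 CPM in excitatory neurons, a difference of -0.60 ± 0.08 (SE, adjusted p = 0.000476). Eef1d, an exchange factor of elongation, rose by 1.84 in radial glia (adjusted p = 1.09e-07), while Eef2 fell by 0.46 there (adjusted p = 0.00167). In cycling radial glia 2 of 16 were higher, near the 10.7% of all genes, Hnrnpa1 with 0.80 (adjusted p = 0.000392) and Nap1l1 with 0.69 (adjusted p = 0.00147).

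Of 18 genes of ribosome assembly, 12 were lower in MGE interneurons than in excitatory neurons (median -0.58) and 11 were higher in ganglionic eminence progenitors (median 0.73), but 1 was higher in intermediate progenitors than in excitatory neurons (median -0.03). In radial glia 7 were higher, near the background of 31.9%, and 2 lower than in excitatory neurons. Against intermediate progenitors 2 were higher in radial glia, a smaller share than the 18.6% of all genes. In cycling radial glia 7 were higher and none lower (median 0.45), among them Nop58, a protein that guides rRNA methylation, with 174 and 182 against 111 and 93.6 CPM and a difference of 0.83 ± 0.16 (SE, adjusted p = 0.000483), and Gar1 with 0.76 (adjusted p = 0.013). The ribosomal protein genes had no call there, and the difference between both lists was not tested. Of 11 genes of growth control, 1 was higher and 5 lower in radial glia than in excitatory neurons, and 4 were lower in intermediate progenitors than in excitatory neurons. In MGE interneurons 1 was higher and 1 lower, smaller shares than the 19.0% and 21.3% of all genes. In ganglionic eminence progenitors 3 were higher and 3 lower, near the backgrounds of 27.7% and 28.9%. In radial glia against intermediate progenitors 2 of 10 were higher, near the background of 18.6%. In cycling radial glia 2 of 10 were higher, against 10.7% of all genes, with Mycn, a transcription factor of growth, at 0.92 (adjusted p = 0.00363). Of 78 mitochondrial ribosomal protein genes, 54 were lower in MGE interneurons than in excitatory neurons and 51 were higher in ganglionic eminence progenitors. In intermediate progenitors 26 were higher and 1 lower than in excitatory neurons. In radial glia 29 were higher than in excitatory neurons, near the background of 31.9%, and 7 lower. Against intermediate progenitors, radial glia had 2 higher, a smaller share than the 18.6% of all genes, and 11 lower, near the background of 14.7%. In cycling radial glia 5 were higher, a smaller share than the 10.7% of all genes, led by Mrpl51 with 0.99 (adjusted p = 6.79e-05).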

How the data were processed

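Both libraries were made with the 10x Genomics 3′ v3.1 dual index kit, and the submitters' processing notes name Cell Ranger 7.0.0 and mm10 for what the authors deposited, which are unnormalized UMI counts, 1 matrix of genes by barcodes for each library. The counting of introns and the annotation are not given in the sources used here. Cells of 1500 to 60000 UMIs with under 10% mitochondrial UMIs were kept, limits that the study's methods give for its single-nucleus data and not for these libraries, and simulated-neighbour doublets (0.8% per 1000 called cells, 2 simulated doublets per cell, 2000 variable genes, 30 principal components) were left out, 920 and 857 cells. Total UMIs were 74930397 and 68964234, with medians of 2967 and 3381.5 per barcode before filtering. Counts summed per class and library were tested with edgeR 4.0.16 in R 4.3.3 (filterByExpr, TMM, glmQLFit, glmQLFTest, two-sided), with DESeq2 1.42.0 as an alternative. The edgeR test was also run on simulated counts drawn from the means of a single class, with known changes added and no difference between libraries. That setting is simpler than these data, so it does not show how the test behaves on them. The gene set, gates and lists were chosen with earlier results of these data known.

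Sums with the same replicate number come from the same library, and their deviations from the class means correlated with r = 0.158 to 0.235 over genes, so fits with the library as a block were also made. Genes were named by a rule: up to 5 called genes per direction and comparison with the largest differences, of the same sign in both libraries, besides paralogs, P-stalk genes, the 10 genes with most UMIs, the 5 most and 5 least varying in share, and the 2 leading genes of each list; Rps6, Rps29 and Eef1a1 and the short genes were named after their values were seen. Coding lengths came from the canonical transcripts of GENCODE vM39 by Ensembl ID (79 of 79 matched) and were not checked against protein sequences, and promoters came from RefSeq. Alternatives were other scalings, filters, gates and depth ranges, and 1 was chosen after seeing the data. Some genes that the rule names are not reported here. Other samples of the line were not analysed here.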

Additional observations from a re-analysis of the deposited data

Results flagged for a closer look

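Symbols of ribosomal protein copies outside the 79 genes carried UMIs above the limit of 3 that a count of 0 allows. Rps27rt held 2858 UMIs over both libraries (1613 and 1245), Rpl9-ps6 held 2400 (965 and 1435), Rpl10-ps3 held 1780 (848 and 932) and Rpl36a-ps1 held 1366 (702 and 664). These names belong to near-identical copies of Rps27, Rpl9, Rpl10 and Rpl36a, and the counting could split reads between a gene and its copy, so the values of both are uncertain. Which copy the molecules came from was not tested.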

How the results depend on the processing

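Of 168 gene counts and 98 shares, 131 and 75 stayed within 1.5 times or within 1 SD. These numbers include gene counts whose main value was 0, where a 0 that stayed 0 was taken as unchanged. They also include values with a library left out, which say little. A share from either library alone always lies within 1 SD of the mean of 2, and for counts only the signs of called genes were checked again. For radial glia against excitatory neurons, the 31 genes higher became 58 without TMM, 17 without the low-count filter, 5 with all gated classes in 1 fit and 52 with the replicate block, and the 0 lower became 1 without the filter and 1 with the block. For radial glia against intermediate progenitors, the 41 lower became 24 with DESeq2, 27 without TMM, 1 in 1 fit, 75 with the block, 21 with the loose gate and 8 with the strict gate, and the 1 higher became 0 with DESeq2 and 0 with the strict gate. In 1 fit, intermediate progenitors had 27 higher and MGE interneurons 40 lower than excitatory neurons. With the block 1 gene was higher in cycling radial glia. It moved no other count by over 1.5 times. Scaled to the set, the counts higher and lower were 3 and 1 for radial glia and 1 and 2 for intermediate progenitors against excitatory neurons, 2 and 0 for radial glia against intermediate progenitors, 0 lower for MGE interneurons, and 2 and 1 for ganglionic eminence progenitors. With that scaling and the block, a pair chosen after seeing the data, they were 15 and 16, 4 and 6, 9 and 2, 4 and 5, and 4 and 5, and 1 higher for cycling radial glia.

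Shares in cells of 4000 to 12000 UMIs were 13.5% in radial glia, 16.4% in intermediate progenitors, 12.3% in ganglionic eminence progenitors, 7.63% in MGE interneurons and 9.84% in striatal neurons. With doublets kept, intermediate progenitors had 15.1%, ganglionic eminence progenitors 11.7%, Cajal-Retzius cells 8.06% and mural cells 12.3%. The loose gate gave 14.9%, 11.6% and 7.94% in intermediate progenitors, ganglionic eminence progenitors and Cajal-Retzius cells, and the strict gate 15.2% in intermediate progenitors, 7.93% in Cajal-Retzius cells and 10.2% in striatal neurons. A stricter cell filter gave 12.03% in ganglionic eminence progenitors and 7.61% in MGE interneurons. Without mitochondrial, Malat1 and globin UMIs the shares were 16.3% in intermediate progenitors, 12.4% in ganglionic eminence progenitors, 8.54% in Cajal-Retzius cells, 13.9% in mural cells, 18.2% in fibroblasts and 14.8% in erythroid cells. With either library left out no residual degrees of freedom remained, so only signs were compared, and the called genes kept theirs. Classes under 20 cells in a setting gave no value.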
